A study of Homo sapiens with 3 samples.

Results

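The HOX genes are 39 homeobox genes that lie in the HOXA, HOXB, HOXC and HOXD clusters on chromosomes 7, 17, 12 and 2. They were examined as targets of MECOM (EVI1), a DNA-binding zinc finger protein linked to myeloid leukaemia. A peak was counted as a HOX peak where the deposited annotation named a gene as HOXA, HOXB, HOXC or HOXD followed by digits only. This rule took 10 of 3462 peaks, at 9 of the 39 genes. The series held 3 libraries of chromatin immunoprecipitation with sequencing, 1 per group, from HEK293T cells, a human embryonic kidney line. The groups were cells with R750W MECOM carrying the AM tag, cells with wild-type (WT) MECOM carrying the AM tag, and cells with the pMYS-IG vector. The antibody recognises the AM tag, a short peptide. The extraction protocol calls the cells transfected and the design text calls them transduced. The values here are those of the WT list, which is tied to its library by genotype name, and the lists of the R750W and vector libraries were not analysed here. No peak has a replicate, no group was compared with another, and signal of the antibody in vector cells was not examined. A peak list does not show whether the cells carry the markers of their line.

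HOX genes encode transcription factors that give cells their position along the body axis. Within a cluster the genes share 1 direction of transcription, and they are numbered by paralogue group, from group 1 at the 3′ end, active early and towards the head, to group 13 at the 5′ end, active late and towards the tail. In adult tissue the HOX genes are known from blood stem cells and leukaemias, where HOXA9 is often highly expressed, and from the kidney. Polycomb complexes keep silent parts of the clusters compacted, and antisense and other non-coding RNAs are transcribed between the genes.

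Sequence was available from RefSeq (GRCh38.p14) for windows that run from 250 bases before to 50 bases after annotated starts. Of 9 such windows with a start within 1000 bp of a peak in the clusters, 4 are printed: the 2 that a peak overlaps, the one nearest to a peak that does not overlap it (HOXC5), and HOXD3, chosen after the motif search below as the one of the 9 that held a match. In the first 2 windows the capitals mark the bases that lie inside a peak, and in the others they mark matches to the motifs searched. The HOXA-AS2 window, chr7:27121669-27121968 on the plus strand, holds 146 bases of the highest peak of the clusters. The LOC100129455 window, chr2:176130479-176130778 on the minus strand, holds 230 bases of the peak assigned to HOXD8. The window of the start shared by HOXC4 and HOXC5, chr12:54016638-54016937 on the plus strand, ends 137 bp before a HOXC5 peak. The HOXD3 window, chr2:176157057-176157356 on the plus strand, ends 336 bp before the peak assigned to HOXD4.
HOXA-AS2: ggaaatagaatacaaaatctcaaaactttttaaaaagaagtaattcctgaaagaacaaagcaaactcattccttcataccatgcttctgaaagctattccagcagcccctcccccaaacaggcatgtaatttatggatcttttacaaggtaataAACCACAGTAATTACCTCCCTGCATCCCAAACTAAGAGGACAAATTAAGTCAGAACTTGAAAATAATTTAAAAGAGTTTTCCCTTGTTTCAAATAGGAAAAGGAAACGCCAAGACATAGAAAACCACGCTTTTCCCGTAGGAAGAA
LOC100129455: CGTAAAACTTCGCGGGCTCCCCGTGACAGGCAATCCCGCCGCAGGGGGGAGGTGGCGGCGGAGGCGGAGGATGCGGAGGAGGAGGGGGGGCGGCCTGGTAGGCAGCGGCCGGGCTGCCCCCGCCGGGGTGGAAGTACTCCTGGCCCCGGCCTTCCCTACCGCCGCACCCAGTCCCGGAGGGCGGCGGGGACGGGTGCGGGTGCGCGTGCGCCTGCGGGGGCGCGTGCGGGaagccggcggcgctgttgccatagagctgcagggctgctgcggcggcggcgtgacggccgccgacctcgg
HOXC5: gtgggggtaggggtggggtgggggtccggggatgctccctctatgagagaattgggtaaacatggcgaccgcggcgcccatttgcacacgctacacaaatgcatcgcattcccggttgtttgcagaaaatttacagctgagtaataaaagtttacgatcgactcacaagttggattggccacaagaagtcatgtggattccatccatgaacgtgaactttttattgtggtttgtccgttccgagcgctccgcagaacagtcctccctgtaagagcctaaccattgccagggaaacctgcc
HOXD3: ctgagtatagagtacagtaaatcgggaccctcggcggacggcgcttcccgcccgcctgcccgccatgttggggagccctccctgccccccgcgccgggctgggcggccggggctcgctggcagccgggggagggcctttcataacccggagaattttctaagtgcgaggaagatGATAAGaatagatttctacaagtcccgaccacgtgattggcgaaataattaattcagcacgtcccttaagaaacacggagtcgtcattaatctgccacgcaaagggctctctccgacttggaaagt

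The motifs searched on both strands were AGATAA and GATAAG, which resemble the site of the first zinc finger domain of MECOM and overlap each other by 5 letters, then GATGAG from the site of the second domain, and CGGAAG, the core of ETS family sites. RefSeq gave 26 windows for 20 of the 39 HOX genes. GATAAG occurred in 3 of the 26 (11.5%) against 6.37% of 34943 windows over the genome, and AGATAA in 2 (7.69%) against 10.4%. GATGAG also occurred in 2 (7.69%) against 12%, and CGGAAG in 2 (7.69%) against 19.4%. The 9 windows near a peak include none at the starts of HOXB7, HOXB9, HOXB13 and HOXC9, which lie within 208 bp of a peak or under one. Of the 9, the HOXD3 window held a match, GATAAG with its first base 76 bases before the start, outside the peak. A HOXA3 window 230 bp from a peak and the LOC401021 window 296 bp from one, both closer than that of HOXD3, held none. The stretches of peak in the HOXA-AS2 and LOC100129455 windows held none of the 4 motifs. These windows differed widely in base composition, with 36.0% G and C in HOXA-AS2, 77.7% in LOC100129455, 51.7% in HOXC5 and 58.0% in HOXD3. The median over the 26 HOX windows was 58.0% G and C with 22.5 CpG pairs, against 58.7% and 14 over the genome.

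Of the 39 HOX genes, 9 (23.1%) were assigned a peak, against 9.96% of 20037 protein-coding genes. The HOXB cluster held 5 of the 9 (HOXB2, HOXB3, HOXB8, HOXB9 and HOXB13), the HOXD cluster 3 (HOXD3, HOXD4 and HOXD8) and the HOXC cluster 1 (HOXC5, with 2 peaks). None of the 11 HOXA genes, among them the leukaemia gene HOXA9, was assigned a peak. No gene-level test is given for these counts, since neighbouring genes share peaks and a single library was used. With peaks at a −log10 q of at least 5, a stricter measure of the caller's false discovery rate, 4 HOX genes remained (HOXB9, HOXB13, HOXD3 and HOXD4; 10.3%), against 5.4% of protein-coding genes. With peaks at or above the median fold of the list, 3 remained (HOXB13, HOXD3 and HOXD4; 7.69%), against 4.94%. With peaks that began within 1000 bp of the annotated start, 5 remained (HOXB9, HOXB13, HOXC5, HOXD3 and HOXD8; 12.8%), against 6.93%.

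**Figure D1:**
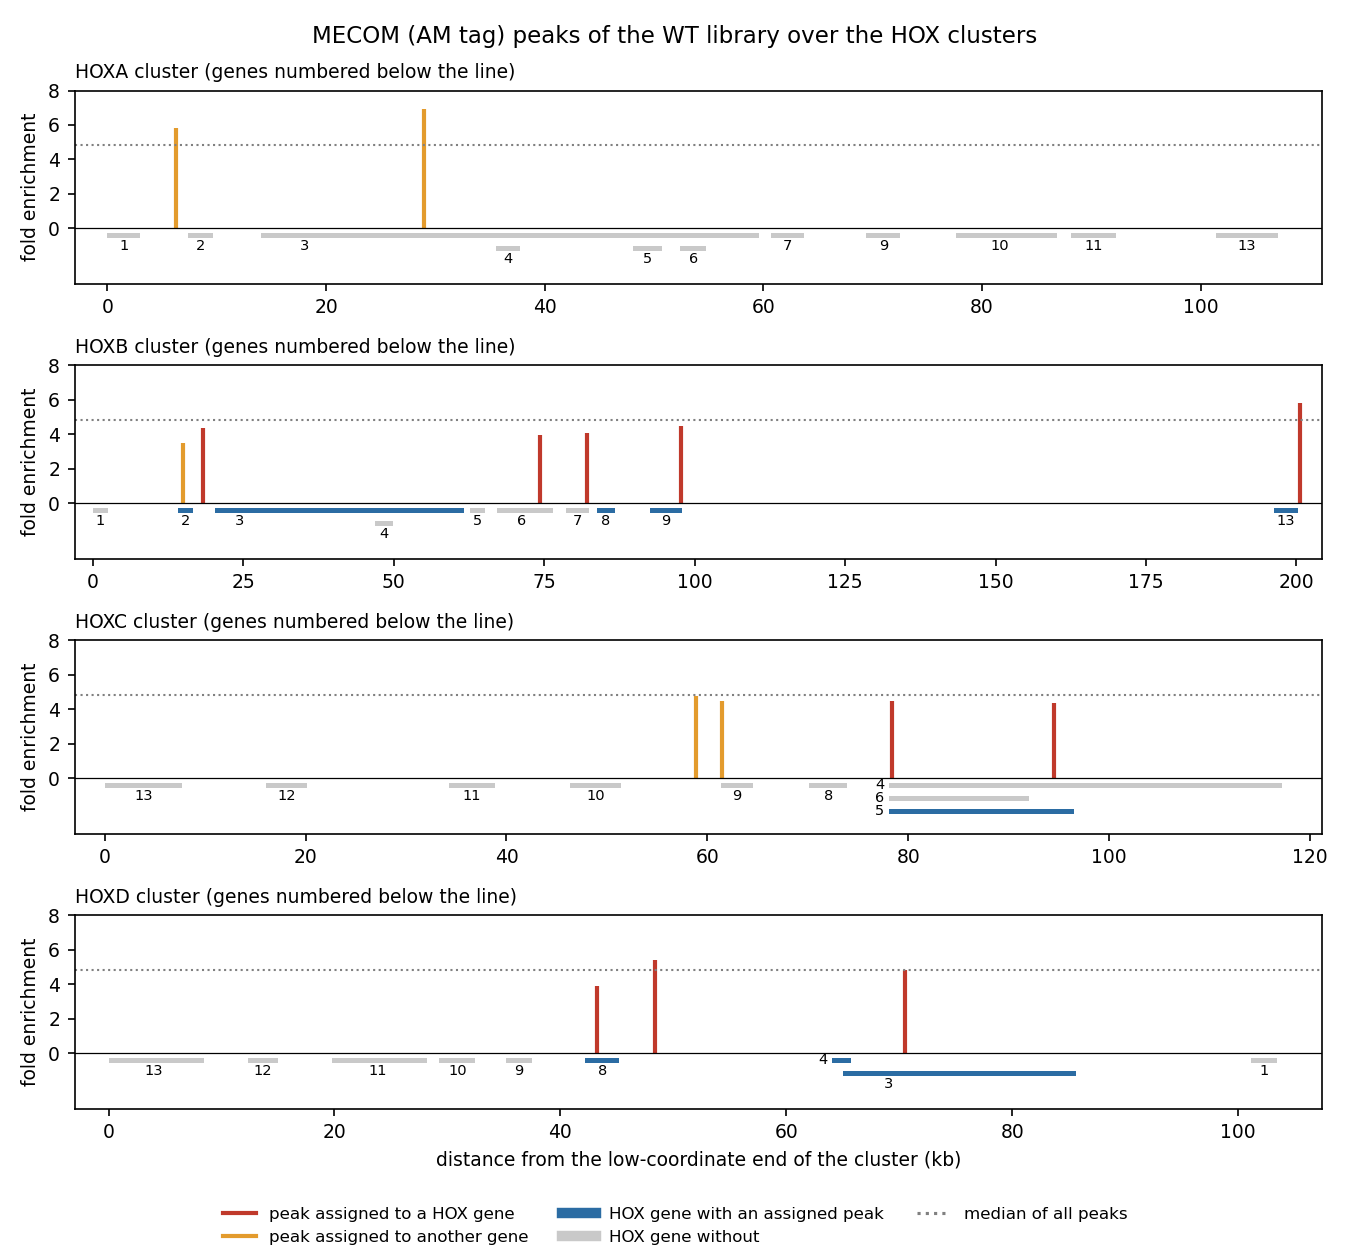
Peaks of the WT library over the 4 HOX clusters. The x axis is the distance in kb from the low-coordinate end of each cluster, the height of a line is the fold enrichment of a peak, bars under the line are RefSeq gene spans labelled by paralogue group, and the dotted line is the median fold of all peaks (4.82). The HOXA cluster has 2 peaks near its group 1 to 3 end, and its genes from HOXA4 to HOXA13 have none between them.

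The height of a peak is given as fold enrichment, the ratio of sequenced fragments to local background computed by the authors' peak caller, and as the number of fragments at its highest point, which the authors' fold and p-value together fix. Each interval after a fold is an exact 95% Poisson interval that takes the background as known, and it covers counting error only. The HOX peaks had a median of 4.43-fold, from 3.88 to 5.84, against a median of 4.82 and quartiles of 4.06 and 5.67 for all 3462 peaks. The HOX peaks carried 14 to 22 fragments (median 19) against a median of 18 for all peaks. The background at HOX peaks had a median of 3.47 fragments, against 2.92 at all peaks. Of the 10 HOX peaks, 7 lay below the median fold of the list, and no HOX peak had an interval apart from that median.

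In the HOXB cluster the highest peak belonged to HOXB13, a posterior gene known from the prostate. It lay at chr17:48728811-48729472, across the annotated start of the gene, and had 21 fragments where 2.76 were expected (5.84-fold, 3.72 to 8.79). Of all peaks, 21.8% were higher. HOXB13 lies apart from the other HOXB genes, and the 101926 bp from the HOXB9 peak to the RefSeq start of HOXB13 held no peak. HOXB9, a gene of the thoracic region, had the widest HOX peak, 954 bp at chr17:48625871-48626824, also across its start (4.47-fold, 2.87 to 6.66, 22 fragments). The median width was 366 bp for HOX peaks and 414 bp for all peaks, and 4 of the 10 HOX peaks were wider than 600 bp, against 22.4% of all peaks.

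HOXB2 and HOXB3 pattern the hindbrain. The peak assigned to HOXB2, chr17:48546684-48547064, lay 1695 bp upstream of its annotated start, within the antisense gene HOXB-AS1 (4.39-fold, 2.62 to 6.97, 16 fragments). The peak assigned to HOXB3, chr17:48602532-48603298, reached 3.99-fold (2.57 to 5.96, 22 fragments). It lay inside the deposited span of HOXB3, which reaches to 48604912, whereas the RefSeq span of HOXB3 ends at 48590241 and the same peak overlaps HOXB6. The peak assigned to HOXB8, a gene that can immortalise mouse myeloid progenitors, lay downstream of it at chr17:48610505-48610809 (4.11-fold, 2.49 to 6.45, 17 fragments). This peak overlapped HOXB7 in RefSeq, 208 bp into the gene from its start.

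In the HOXC cluster both assigned peaks went to HOXC5. The first, chr12:54017074-54017333, spanned the start of the longer of 2 annotated HOXC5 genes (4.51-fold, 2.65 to 7.25, 15 fragments). In RefSeq, HOXC4, HOXC5 and HOXC6 begin at the same base, and this peak begins 186 bp after it, so the 3 genes cannot be told apart at this peak. The second, chr12:54033214-54033565, lay 361 bp inside the shorter HOXC5 gene (4.39-fold, 2.73 to 6.73, 19 fragments). It was 385 bp from the hairpin of miR-615, a microRNA that lies within HOXC5, and the other 7 microRNA genes inside the clusters were 4336 to 47387 bp from a peak. The mature miR-615 forms are printed, with the seed (bases 2 to 8) in capitals, because this hairpin is the cluster microRNA nearest to a peak.
hsa-miR-615-5p: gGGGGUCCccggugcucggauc
hsa-miR-615-3p: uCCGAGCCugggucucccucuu

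In the HOXD cluster the peak assigned to HOXD3, a gene of the neck region, was the highest at 5.4-fold (3.11 to 8.81). It lay at chr2:176135723-176136066, 889 bp upstream of the deposited start of HOXD3, within HOXD-AS2, and rested on 14 fragments over a background of 1.78, the fewest fragments and the lowest background of the HOX peaks. The peak assigned to HOXD4, which also acts in the neck and hindbrain, was at chr2:176157692-176158361, downstream of that gene and inside both the deposited and the RefSeq span of HOXD3 (4.83-fold, 3.07 to 7.26, 21 fragments). HOXD8 had the lowest HOX peak, chr2:176130549-176130892, 855 bp inside the gene (3.88-fold, 2.42 to 5.96, 19 fragments). HOXD8 was 1 of 4 HOX peaks that overlapped the RefSeq span of the gene they were assigned to. A further 3 overlapped a different HOX gene only, and the other 3, those of HOXB2, HOXB13 and HOXD3, overlapped no HOX span.

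**Figure D2:**
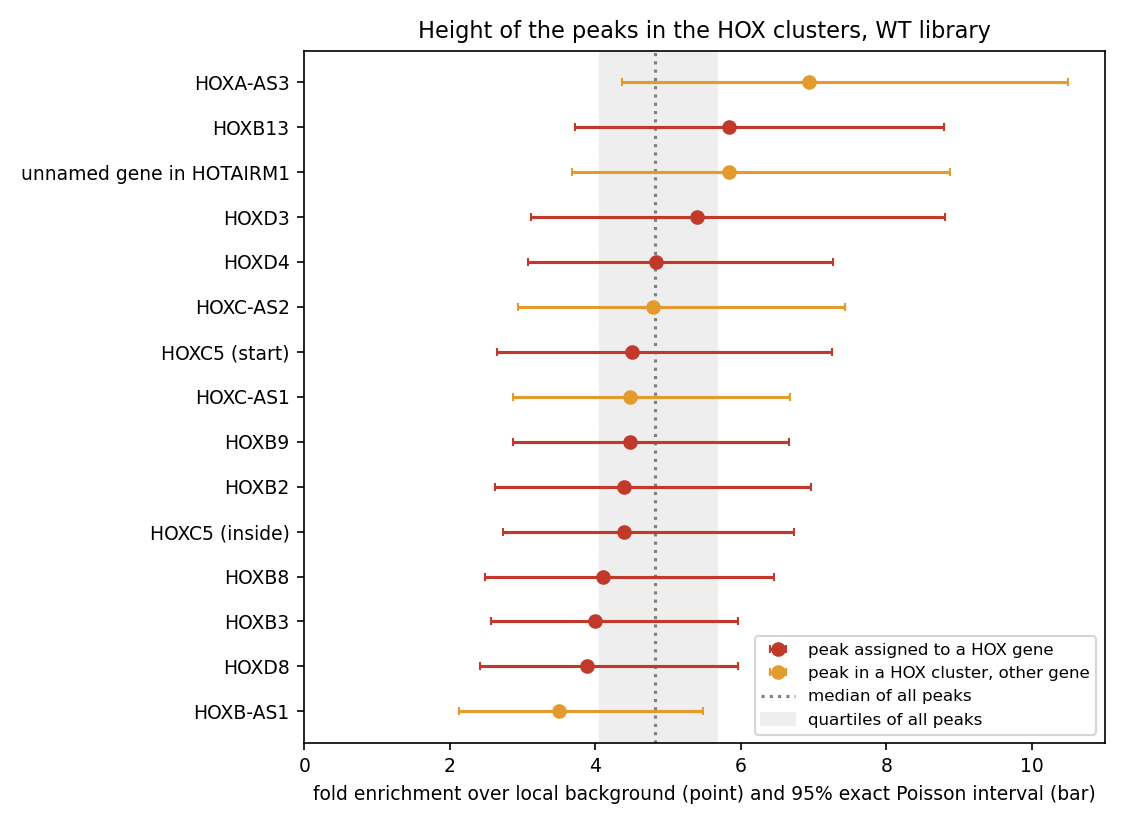
Fold enrichment (x axis) of the 15 peaks in or at the HOX clusters, labelled by the gene the deposited table names, with points for the fold and bars for the exact 95% Poisson interval. The dotted line is the median of all peaks (4.82) and the band their quartiles (4.06 and 5.67), and each of the 15 bars crosses the dotted line.

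Further peaks in the clusters carried the names of other genes. From the first to the last HOX gene the clusters span 528 kb and held 14 peaks, and the HOXB13 peak lies 61 bp outside that span, which makes 15 peaks. Of the 14, 5 were assigned to other genes. The highest of the 15 was in HOXA, at chr7:27121823-27122093 (6.94-fold, 4.37 to 10.5, 20 fragments), and 8.03% of all peaks were higher. It was assigned to HOXA-AS3, 8154 bp away, but overlapped HOXA3, a gene of neck and pharyngeal organs, and the start of the antisense gene HOXA-AS2 whose sequence is printed above. The other HOXA peak, chr7:27099087-27099410, lay within HOTAIRM1, a non-coding RNA gene known from myeloid cells, 944 bp from HOXA2 (5.84-fold, 3.68 to 8.87, 20 fragments). Both HOXA peaks were above the median fold of all peaks.

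A peak assigned to HOXC-AS1, chr12:54000137-54000486, spanned the RefSeq start of HOXC9 (4.47-fold, 2.87 to 6.67, 22 fragments). Another, assigned to HOXC-AS2 at chr12:53997518-53997946, lay 2215 bp upstream of HOXC9 (4.79-fold, 2.94 to 7.43, 18 fragments). The lowest of the 15, assigned to HOXB-AS1 at chr17:48543453-48543735, overlapped HOXB2 (3.50-fold, 2.12 to 5.48, 17 fragments). Among the 105 pairs that the 15 peaks form, none had intervals apart from each other. Overlap of 2 intervals is not a test of the difference between them, and the order of these peaks was not tested.

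**Figure D3:**
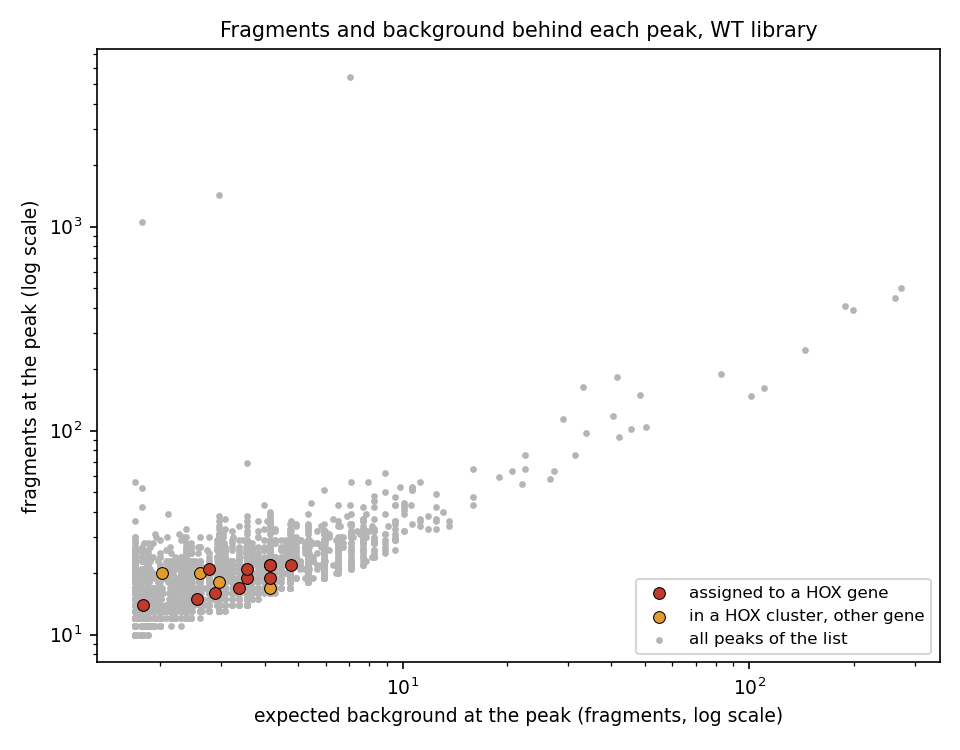
Fragments at each peak (y axis, log scale) against expected background (x axis, log scale), with 1 point per peak of the WT library. The peaks assigned to HOX genes (14 to 22 fragments over a background of 1.78 to 4.76) and the others in the clusters lie within the main cloud of the list.

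By overlap with RefSeq spans in place of the deposited gene names, 11 of 39 HOX genes (28.2%) held a peak, against 11.4% of protein-coding genes. With spans widened by 1000 bp on each side the count was 13 (33.3%) against 13.7%, and with 5000 bp it was 18 (46.2%) against 15.2%. The names changed more than the number: 5 genes had a peak by both measures (HOXB2, HOXB9, HOXC5, HOXD3 and HOXD8). For HOXB2 and HOXD3 these were different peaks, since the overlapping ones were assigned to HOXB-AS1 and HOXD4. HOXB3, HOXB8, HOXB13 and HOXD4 were assigned a peak that did not overlap their span. HOXA3, HOXB6, HOXB7, HOXC4, HOXC6 and HOXC9 were overlapped by a peak assigned elsewhere. With both measures joined, 15 HOX genes (38.5%) had a peak and 24 did not, against 13.8% of protein-coding genes with one. Those 24 were 944 to 72271 bp from the nearest peak, with a median of 21600 bp.

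By paralogue group and either measure (13.8% of protein-coding genes), 6 of 12 genes of groups 1 to 4 had a peak, 6 of 11 of groups 5 to 8, and 3 of 16 of groups 9 to 13. The 3 posterior genes were HOXB9, HOXB13 and HOXC9. This order depended on the peak threshold. At a −log10 q of at least 5, tried once these values were known, the counts were 3 (HOXA3, HOXD3 and HOXD4), 0 and 3 (the same posterior genes), which makes 6 HOX genes (15.4%) against 7.74% of protein-coding genes. None of the 8 genes of groups 10 to 12 had a peak, nor had any of the 3 genes of group 1. Sets this small can hold none at a share of 13.8%. In HOXA the 77998 bp from the peak in HOXA3 to the end of HOXA13 held 8 whole HOX genes (HOXA4 to HOXA7, HOXA9 to HOXA11 and HOXA13) and no peak. In HOXC the 58687 bp that hold HOXC10 to HOXC13, and in HOXD the 43062 bp that hold HOXD9 to HOXD13, had none. Stretches without a peak also lay among genes of lower groups. In HOXB 55467 bp held the RefSeq spans of HOXB3, HOXB4 and HOXB5, and in HOXD 32546 bp held HOXD1. Over the gene-bearing length of the chromosomes the list held 0.111 peaks per 100 kb, so most stretches of such lengths hold no peak. Genes of a cluster share peaks and do not count as independent observations, so the difference between groups was not tested.

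**Figure D4:**
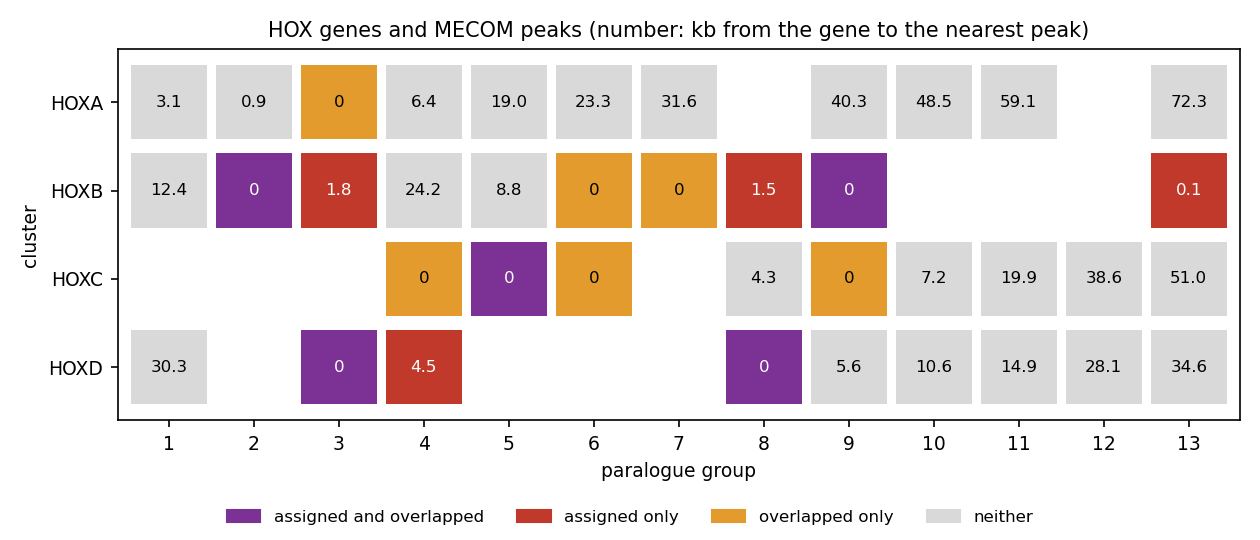
The 39 HOX genes by paralogue group (x axis) and cluster (y axis). Colour shows whether a peak was assigned to the gene, overlapped its RefSeq span, both or neither, numbers give the distance in kb from the span to the nearest peak, and blank cells are groups with no gene in that cluster. The cells of groups 10 to 12 are grey (neither), and in group 13 HOXB13 is the one that is not.

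By the annotation's classes, 3 of the 10 (HOXB9, HOXB13 and HOXC5) spanned a gene start (30.0%), against 675 of 3419 annotated peaks (19.7%), and 2.32% of protein-coding genes were assigned such a peak. Another 3 lay inside the gene (30.0% against 40.4%), 2 upstream (20.0% against 27.8%) and 2 downstream (20.0% against 11.4%). In 6 of the 10 (60.0%) the peak began within 1000 bp of the annotated start, against 55.7% of all annotated peaks. With 10 peaks, shares of this kind move by 10 percentage points with a single peak, so these differences were not resolved.

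The 14 peaks within the cluster spans came to 2.65 per 100 kb, against 0.111 per 100 kb over the gene-bearing length of the chromosomes. The value was 1.87 in HOXA, 2.5 in HOXB, 3.41 in HOXC and 2.9 in HOXD. The clusters are dense in genes, and per protein-coding gene the values were nearer to each other, at 0.333 peaks in the clusters and 0.171 over the genome. Of the 39 HOX genes, 21 (53.8%) had 3 or more peaks within 50 kb of their middle, against 1.22% of protein-coding genes, with a median of 3 for HOX genes and 0 for all. Windows of neighbouring HOX genes overlap and hold the same peaks. The peaks are not independent draws, and no test of the difference was made.

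A list of 47 genes that regulate, work with, adjoin or are related to HOX genes, called regulators here, was also examined. Of these, 9 (19.1%) were assigned a peak, against 9.96% of protein-coding genes. Of 9 genes of the TALE class, whose proteins bind DNA together with HOX proteins, 3 had a peak, among them MEIS3 (8.13-fold, 5.23 to 12.1, 2333 bp upstream) and PBX3 (4.03-fold, 2.57 to 6.07). Of 15 Polycomb genes, which repress the clusters, CBX8 (5.65-fold, 3.63 to 8.43) and the methyltransferase gene EZH2 (4.34-fold, 2.79 to 6.47) had one. Of 10 genes of activating chromatin factors, the H3K27 demethylase genes KDM6A and KDM6B had 2 peaks each, the higher at 4.72-fold (3.09 to 6.93) and 4.22-fold (2.71 to 6.29). Of 8 genes for inputs to the clusters, CDX1 (5.31-fold, 3.12 to 8.55) and CDX2 (4.61-fold, 2.90 to 7.0), caudal-type activators of HOX genes, had one. None of the 5 remaining genes, EVX1 and EVX2 at the cluster ends and GSX1, GSX2 and PDX1, was assigned a peak. The interval of MEIS3 lay wholly above the median fold of the list, and those of the other regulators given with a fold did not. These counts go by the assigned name. By RefSeq spans widened by 1000 bp, 14 of the 47 had a peak, against 13.7% of protein-coding genes. MEIS1, MEIS2, JARID2, PHC2, DOT1L, RARA and RARB had a peak by that measure without an assigned one. CBX8 and CDX1 had an assigned peak and none by that measure.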

How the data were processed

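Peaks were those of 1 annotated list, of the WT library. Per the labels' protocols, nuclease-digested and sonicated chromatin was precipitated with the tag antibody and sequenced in pairs. The submitters' processing notes name hg38, Bowtie2 2.4.2, MACS2 2.1.1.20160309.6 and ChIPseeker 1.18.0, without roles. The deposited table has no header, so columns were identified by their values. The deposited fold enrichment is a ratio to local background, the deposited −log10 p-value and q-value (lowest −log10 q 2.00) and the deposited score are the peak caller's. These are the authors' values. Other deposited values are the width and distances in bp, with genes assigned by nearest location. Columns without a group numbered 0.

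For each peak, 1 pair of a whole fragment number and a background satisfied both the deposited fold, as (fragments + 1)/(background + 1), and the −log10 p, as a Poisson tail within 0.001 (a share of 1e-05 for −log10 p above 1000), found for all 3462 peaks. The recovery was tested on data simulated with the same formulas, which checks the arithmetic and not whether the deposited values follow them. The fewest fragments at any peak were 10, so weaker binding is not listed. Library totals: not given in the sources used here. Gene spans came from RefSeq on GRCh38.p14 and all 39 HOX symbols matched. RefSeq spans carry no strand, so distances to RefSeq starts used the strand that the other sources give for each cluster. The gene-bearing length of a chromosome runs from its first to its last RefSeq gene. The members, lists, motifs and alternatives were chosen with earlier results of these data known. The rule named every HOX gene and listed regulator with a peak, and 1 regulator that it takes is not reported here. The count of peaks within 50 kb was added after the data were seen. No test was made, since each group has 1 library. Python 3.11.15, pandas 2.3.3, numpy 2.4.6, scipy 1.17.1 and matplotlib 3.10.9 were used.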

Additional observations from a re-analysis of the deposited data

How the results depend on the processing

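Of 26 alternative values, 13 lay within 1.5 times the main count or, for the median fold, between the second lowest and second highest HOX peak. A median of HOX peaks lies between those bounds nearly by construction, so the median-fold alternatives say little about stability. Leaving out peaks at the lowest background did not change the HOX median of 4.43. HOX genes assigned a peak numbered 9. They were 4 at a −log10 q of at least 5 (5.4% of protein-coding genes), 3 with peaks at or above the median fold (4.94%), 5 with peaks within 1000 bp of the start (6.93%) and 18 with spans widened by 5000 bp (15.2%). They were 11 by span and 13 by span widened by 1000 bp (13.7%). By either measure, an alternative added after the data were seen, HOX genes with a peak were 15, and 6 at the stricter q (3, 0 and 3 in groups 1 to 4, 5 to 8 and 9 to 13). HOX peaks numbered 10, and were 4 at the stricter q, 3 at or above the median fold and 6 within 1000 bp of the start. Peaks across a start numbered 3, and 6 began within 1000 bp of one. Peaks inside the clusters were 14, and 7 at the stricter q. Regulators with a peak were 9, and 14 by span widened by 1000 bp (13.7% of protein-coding genes). The stricter settings keep fewer peaks (54.8% of the list at that q) and the wider spans admit more. The median fold of HOX peaks relative to all peaks was 0.919, and from 0.916 to 0.947 in the alternatives that kept fold. With other measures in place of fold the ratio was 1.06 for fragments and 0.92 for −log10 q. No paired analysis was possible because only 1 list, from 1 library, entered. With 14 to 22 fragments per HOX peak, depth limits any ranking of them.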
